A study of Mus musculus with 15 samples.

Results

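RNA-seq libraries of Opa1-depleted mouse cells that received OPA1-V465F were set against libraries of cells with the depletion alone, 3 libraries of each by their labels and thus 6 of the 15 in the series. All came from N2a, a neuroblastoma line of the mouse, harvested on day 3 after co-transfection of siRNA (50 nM) with a plasmid. The V465F group (siOPA1/OPA1-V465F) carried siRNA against Opa1 and a plasmid with the V465F substitution of OPA1. Its comparator, called knockdown here (siOPA1/Control), carried the same siRNA with control plasmid. Further groups with that siRNA carried V560F (siOPA1/OPA1-V560F) or unmutated OPA1 (siOPA1/OPA1, called WT OPA1), and a control group (siControl/Control) carried control siRNA and control plasmid. Both groups of the main comparison thus share the siRNA, and the comparison asks what the mutant adds to loss of Opa1. The labels give neither the species nor the sequence of the insert, nor the share of cells transfected, and they do not say whether the 3 libraries of a group came from separate cultures. P-values therefore reflect the variation among libraries within groups, pooled over all 15 libraries, and some or all of that variation can be technical. With V465F, 2867 of 13074 tested genes (21.9%) were higher and 3148 (24.1%) lower. Higher were most immediate early genes, most stress-response and lysosomal genes, and nuclear genes of the respiratory chain and the ribosome. Lower were most Zfp zinc finger genes, and part of the mitochondrial DNA maintenance and axon guidance genes. NF-kB genes split (9 of 22 higher, 6 lower), with Nfkbia, Nfkbiz, Cxcl1 and Cxcl10 higher and Rela and Csf1 lower. ERK feedback inhibitors split too (6 of 18 higher, 4 lower), with Spred1 and Spred2 lower and Ier3 and Dusp4 higher. Over all genes, short and abundant transcripts mostly rose and long ones fell more often, so list counts are to be read beside that trend. Stress-response and mitochondrial DNA maintenance genes moved at about the share of all genes of similar length and level. After the length correction, respiratory chain medians were near that of all genes in the highest FPKM quartile, and axon guidance genes split evenly.

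OPA1, a GTPase related to dynamin, works at the inner membrane of mitochondria. It fuses inner membranes after the mitofusins have joined the outer ones, and it holds the cristae junctions that keep cytochrome c inside the cristae. The proteases OMA1 and YME1L1 cut it into short forms, and its mutations cause dominant optic atrophy, a loss of retinal ganglion cells. When mitochondria fail, cells are known to switch on the integrated stress response through the transcription factors ATF4 and CHOP, and mitochondrial contents that reach the cytosol can activate NF-kB and interferon signalling.

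Opa1 itself was read first as a check of the labels. It stood at 33.6, 34.8 and 33.4 CPM (counts scaled to TMM library size) in the V465F libraries, against 33.9, 38.1 and 38.5 CPM in the knockdown libraries. The groups overlapped, and their means were 35.4% and 38.4% of the control group's 95.9 ± 4.94 CPM (SD, n = 3). The log2 fold change, V465F minus knockdown, was -0.12 ± 0.0867 (standard error, edgeR adjusted p = 0.279; exact two-sided permutation p = 0.2, where 3 against 3 cannot go below 0.1). Its sign depended on the processing, at 0.12 after a correction for transcript length and at -0.25 on the deposited FPKM values (limma adjusted p = 0.0427). Whether RNA from the plasmid was counted in this row is not known, so the value does not measure expression of the mutant.

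The 6 libraries held 20070123 to 22188334 counts in V465F and 23755533 to 24944775 in knockdown, and the standard error of the log2 fold change was 0.107 for the median gene. All 12 markers of N2a and the sympathetic lineage were over 1 FPKM in the 6 libraries on average, and their summed level was 1630 to 1660 FPKM in V465F against 1550 to 1580 FPKM in knockdown, with 4 markers higher and 3 lower. In bulk RNA, fewer cells of a type and less RNA per cell cannot be told apart. Summed markers of fibroblasts, macrophages, endothelium and epithelium were 0.025 to 3.99 FPKM in V465F and 0.0666 to 3.69 FPKM in knockdown, with Col3a1 and Kdr at 0. Glial markers summed to 1.76 to 2.23 FPKM in V465F and 2.86 to 3.14 FPKM in knockdown. Of all 22 of these markers in the table, 1 was called, Mbp of glia, at 1.57 FPKM in V465F against 2.63 FPKM in knockdown. The 50 genes with the most counts took 21.5 to 22.2% of the counts in V465F and 19 to 19.6% in knockdown, without overlap. Mitochondrial mRNA took 6.81 to 6.94% and 6.65 to 7.01%. Outside these 6 libraries, V560F replicate 2 and WT OPA1 replicate 3 stood apart from their groups, with length slopes of -0.756 and -0.0625.

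Of 13074 genes tested, 6015 (46.0%) were called between V465F and knockdown at an adjusted p under 0.05 (edgeR quasi-likelihood test, Benjamini-Hochberg), 2867 higher (21.9%) and 3148 lower (24.1%). Most changes were small: 103 genes (0.788%) rose and 384 (2.94%) fell by at least 2-fold. The values of the 6 libraries did not overlap for 7655 genes (58.6%). Direction went with level and with transcript length. In the highest quartile of mean FPKM, 55.7% of genes rose and 9.82% fell, and in the shortest quartile of transcripts 41.4% rose and 4.8% fell. In the longest quartile 8.29% rose and 41.6% fell. The slope of log2 level on log10 length was -0.239 ± 0.0441 in V465F and 0.195 ± 0.0113 in knockdown (SD, n = 3 each). The part of this trend in the results for single gene groups was not tested. Each group is therefore given with its length-corrected median, from a fit with a smooth length trend removed in each library. Medians and calls described as deposited come from the edgeR fit on the deposited counts, scaled by TMM, without that correction. The median over all genes was -0.03 uncorrected, 0.06 corrected and -0.11 in the limma fit on FPKM. The trend with level remained: corrected medians were 0.2 in the highest FPKM quartile and -0.132 in the lowest, and lists are to be read beside these. In the shortest length and highest FPKM quartiles together 76.1% of all genes rose and 1.75% fell. The medians of the cristae, import, mitochondrial ribosome and antioxidant lists lie there, with 66.7, 53.1, 64.6 and 41.7% of members higher. Quartiles are numbered here from 1 (shortest, lowest FPKM) to 4. In length quartile 2 and FPKM quartile 4, 55.1% rose and 7.32% fell. The autophagy, mitosis, MYC and cytoskeleton medians lie there. Of their members 38.2, 45.9, 46.9 and 34.6% were higher and 20.6, 5.41, 18.8 and 19.2% lower. In length quartile 2 and FPKM quartile 3, 24.2% rose and 20.1% fell. The replication, calcium, cardiolipin, pro-apoptotic, p53 and optic atrophy medians lie there. Of their members 47.5, 57.9, 43.8, 28.6, 35 and 26.1% were higher and 5, 0, 6.25, 23.8, 25 and 21.7% lower. In length quartile 3, 14.8% rose and 40.7% fell at FPKM quartile 3, and 35.9% rose and 20.6% fell at FPKM quartile 4. The fusion and ERK feedback medians lie in the former and the sterol median in the latter. Of those members 27.6, 33.3 and 62.1% were higher and 34.5, 22.2 and 10.3% lower. By edgeR with the length correction 3616 genes (27.7%) rose and 2172 (16.6%) fell.

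**Figure D1:**
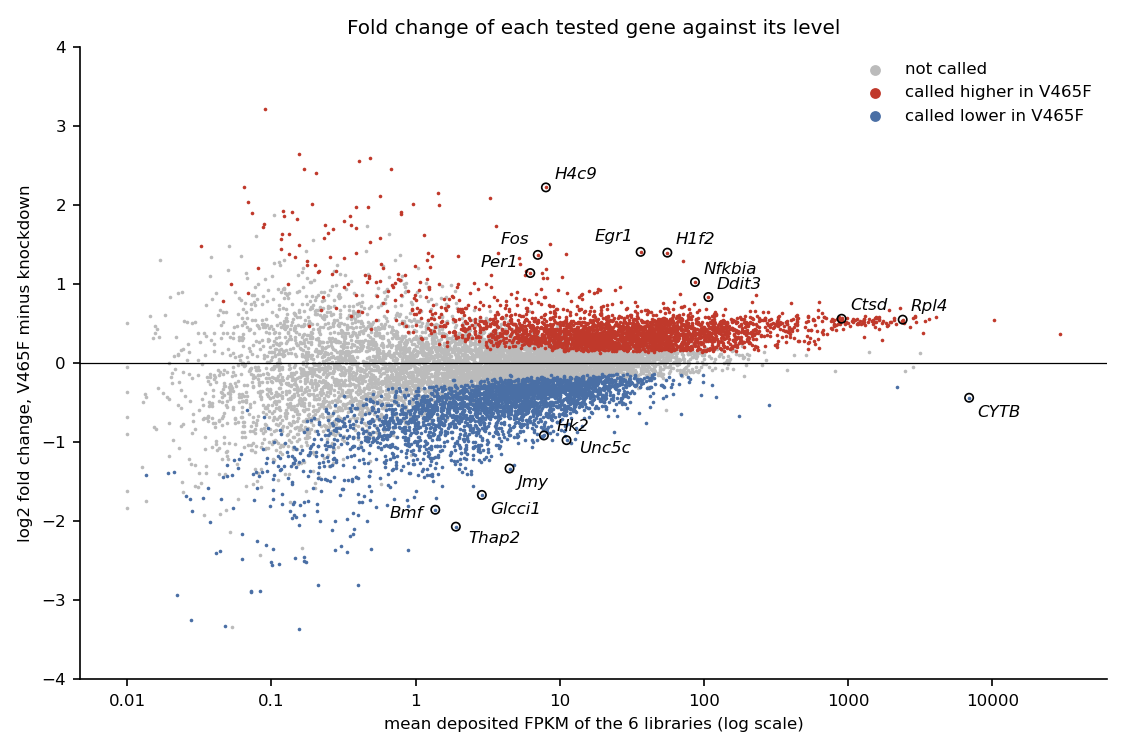
Log2 fold change of V465F against knockdown for each of 13074 tested genes (vertical axis) against its mean deposited FPKM over the 6 libraries (horizontal axis, log scale). Genes called higher lie mostly at high levels and genes called lower mostly at low ones, while Egr1, H1f2, Nfkbia and Ddit3 stand above the band of genes at their level.

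The plot of fold change against level shows that band, which narrows toward abundant genes. The plot by transcript length shows the other trend: the uncorrected median was lower in most bins than in the bin of shorter transcripts before it. The corrected medians lay between -0.0045 and 0.103.

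**Figure D2:**
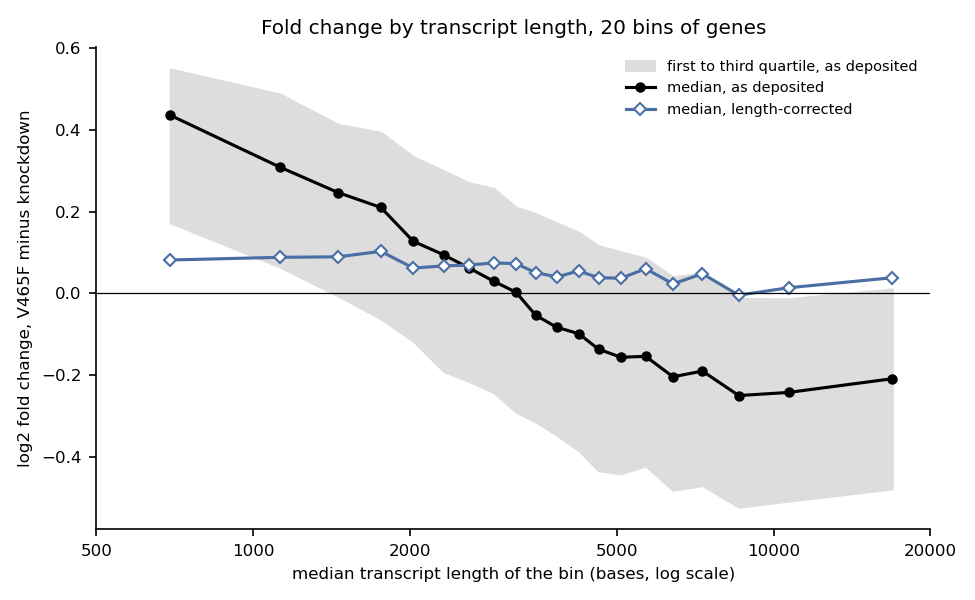
Median log2 fold change of V465F against knockdown in 20 bins of tested genes ordered by transcript length (horizontal axis, bases, log scale). Values are from the fit on counts without the length correction (black, labelled as deposited, with the interquartile range in grey) and after it (blue). The uncorrected median was 0.44 in the shortest bin and below 0 in all bins with a median length of 3492 bases or more.

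Immediate early genes, which respond to growth factor, calcium and stress signals within minutes, gave some of the largest rises. Egr1, a zinc finger transcription factor downstream of ERK, stood at 149, 168 and 193 CPM in V465F, against 62.4, 62.4 and 67.6 CPM in knockdown. Fos, a subunit of AP-1, was at 16.6, 23.9 and 26.8 CPM in V465F and at 9.004, 8.19 and 8.84 CPM in knockdown. For both, every V465F library lay above every knockdown library, and the log2 fold changes were 1.41 ± 0.0806 and 1.37 ± 0.136 (edgeR adjusted p = 2.88e-10 and 2.09e-07). The clock gene Per1, which stress and cAMP signals also induce, rose by 1.14 ± 0.113 (edgeR adjusted p = 2.04e-07) and the zinc finger gene Klf6 by 0.60 ± 0.0611 (edgeR adjusted p = 2.78e-07). The AP-1 subunits Fosb (0.94) and Junb (0.89), the stress factor Atf3 (0.82), the ERK and p38 phosphatase Dusp1 (0.78) and the orphan nuclear receptor Nr4a1 (0.72) rose too. Of 31 tested members of the list, 21 rose (67.7%) and 2 fell (6.45%), Nr4a2 (-0.54) and Klf10 (-0.23). The list's median change was 0.46, and 0.52 after the length correction. Of all genes in the length and FPKM quartiles of its medians, 24.2% rose and 20.1% fell. Npas4, a neuronal activity factor, was at 0.26, and 8 members in all were not called.

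**Figure D3:**
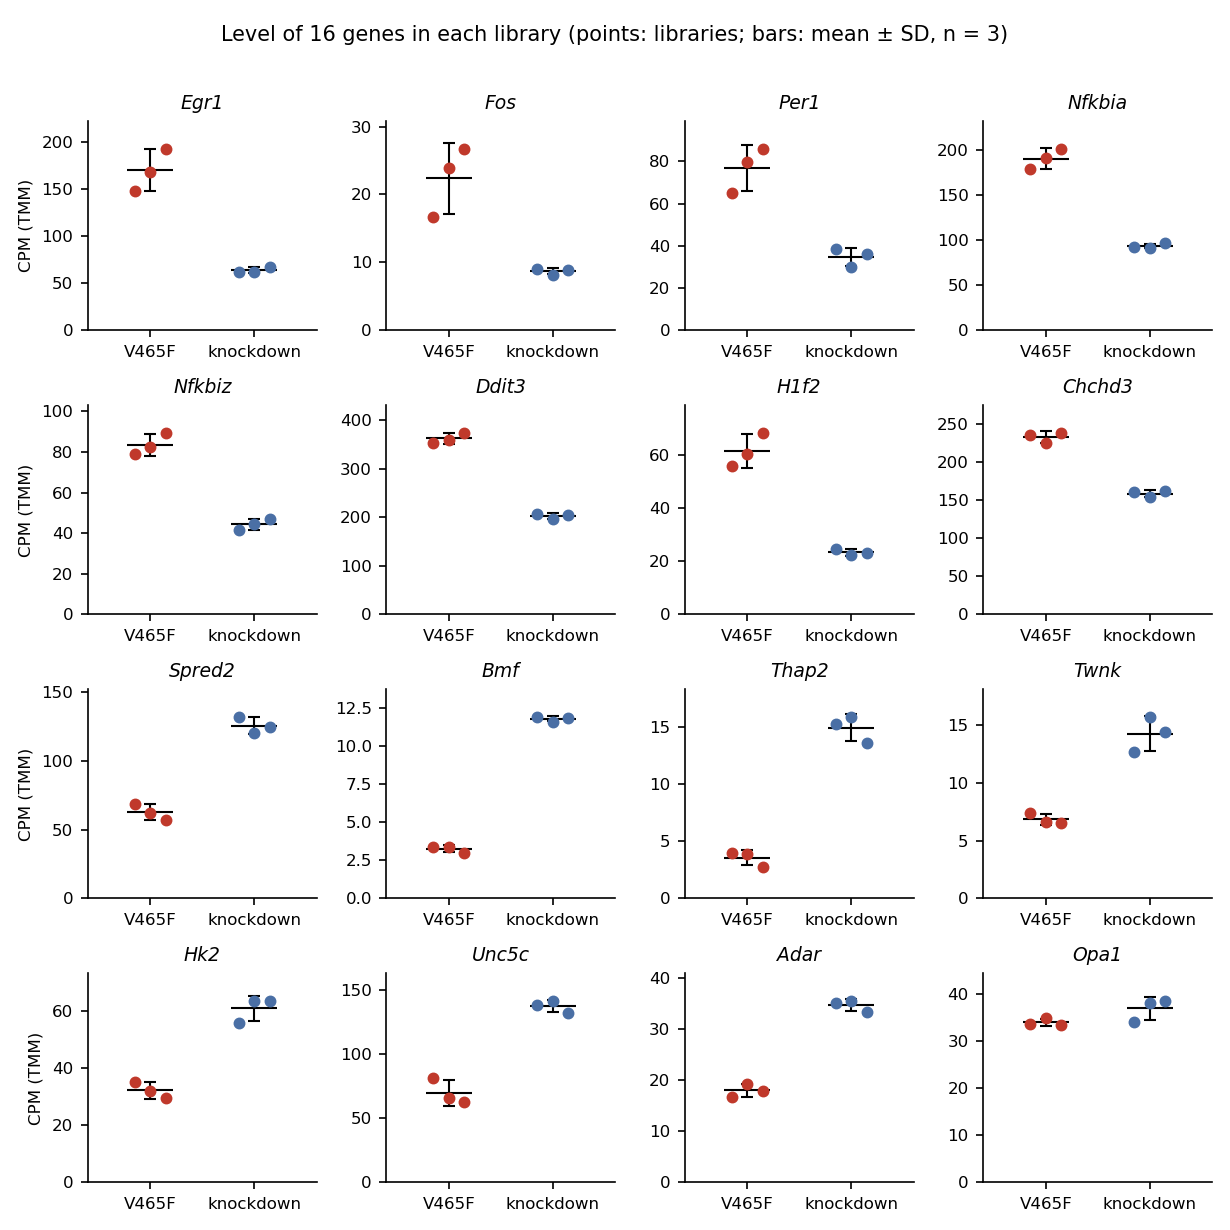
Level in CPM (vertical axis, from 0) of 16 genes in the 3 V465F and the 3 knockdown libraries (points), with mean and SD. The groups do not overlap in 15 of the panels, with Egr1 at 149 to 193 CPM in V465F against 62.4 to 67.6 CPM in knockdown, and they overlap for Opa1.

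The feedback inhibitors of ERK split. Spred2, which blocks RAS from activating RAF, was at 68.6, 62.3 and 57.1 CPM in V465F against 132, 120.0 and 124 CPM in knockdown, 2.00-fold lower without overlap (log2 fold change -1.002 ± 0.0749, edgeR adjusted p = 7.69e-09; -0.81 length-corrected). Spred1 fell by 0.68, the receptor tyrosine kinase inhibitor Spry2 by 0.51 and the ETS factor Etv5, a transcriptional readout of ERK, by 0.52. In contrast Ier3 (0.60), Phlda1 (0.45), the ETS factor Etv4 (0.33), the ERK phosphatases Dusp8 (0.31) and Dusp4 (0.17) and Spry1 (0.30) rose. The ERK phosphatase Dusp6 was at -0.13 and not called. In all 6 of 18 rose and 4 fell, with a median of -0.02 as deposited and 0.14 corrected.

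NF-kB genes also split, with some inhibitors, subunits and secreted targets higher and others lower. Nfkbia, the inhibitor IkBa that NF-kB itself induces, was at 179, 192 and 202 CPM in V465F against 93.1, 91.6 and 96.8 CPM in knockdown, 2.04-fold higher (log2 fold change 1.02 ± 0.0831, edgeR adjusted p = 2.02e-08). Nfkbiz, a nuclear member of the same inhibitor family, was at 78.8, 82.4 and 89.5 CPM in V465F against 41.4, 44.6 and 46.9 CPM in knockdown (0.92 ± 0.081, edgeR adjusted p = 6.42e-08). Neither gene's groups overlapped. The chemokine gene Cxcl10 was at 7.68, 9.46 and 8.50 CPM in V465F against 3.25, 2.82 and 4.13 CPM in knockdown (1.33 ± 0.178, edgeR adjusted p = 5.67e-06), again without overlap. The transcription factor Irf1 rose by 0.63, the chemokine Cxcl1 by 1.11 and the cytokine Il6 by 0.87, both of the last at low levels, with 3.99 to 5.22 and 8.79 to 11.8 CPM in V465F against 1.40 to 3.03 and 4.75 to 7.11 CPM in knockdown. The subunit Rel (0.26), the inhibitor Nfkbib (0.40) and the mitochondrial superoxide dismutase Sod2 (0.29) rose. Lower were the subunits Rela (-0.42) and Nfkb1 (-0.46), the growth factor Csf1 (-0.63), the inhibitor Nfkbie (-1.92), the apoptosis inhibitor Birc3 (-1.12) and Tnfaip2 (-0.29). Of 22 tested members 9 rose (40.9%) and 6 fell (27.3%), beside 7.82% and 28% of all genes in the quartiles of the list's medians. The median was 0.21 as deposited, 0.32 corrected, 0.02 on FPKM and 0.10 without knockdown replicate 1. Without V465F replicate 3 the falls were 3, and the smallest number of rises with any of the 6 libraries left out was 7. Nfkbie and Birc3 were under 1 FPKM, and Nfkb1 overlapped between the groups.

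The promoters of 4 of the higher genes, and of Chac1 described further below, are shown because the 4 hold a κB site and Chac1 holds an element for C/EBP and ATF dimers. They were chosen after the values were seen. The sequences are RefSeq windows of 300 bases on GRCm38.p6 (250 before the annotated start and 50 after it), an older build than that of the deposited table, written 5′ to 3′ on the gene's strand. The windows are Nfkbia, chr12:55492598-55492897 on the minus strand, Cxcl1, chr5:90890995-90891294 on the plus strand, Cxcl10, chr5:92348840-92349139 on the minus strand, and Irf1, chr11:53769764-53770063 on the plus strand, with κB sites in capitals, and Chac1, chr2:119350992-119351291 on the plus strand. In Chac1 the capitals mark TGATGNAA on the opposite strand, an element bound by dimers of C/EBP and ATF factors such as CHOP and ATF4.
Nfkbia: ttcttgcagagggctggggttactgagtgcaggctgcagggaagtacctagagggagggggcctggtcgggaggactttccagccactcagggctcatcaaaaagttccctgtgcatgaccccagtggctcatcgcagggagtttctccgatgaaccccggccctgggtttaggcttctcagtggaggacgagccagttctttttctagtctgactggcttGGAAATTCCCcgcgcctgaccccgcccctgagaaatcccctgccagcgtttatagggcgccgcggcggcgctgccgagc
Cxcl1: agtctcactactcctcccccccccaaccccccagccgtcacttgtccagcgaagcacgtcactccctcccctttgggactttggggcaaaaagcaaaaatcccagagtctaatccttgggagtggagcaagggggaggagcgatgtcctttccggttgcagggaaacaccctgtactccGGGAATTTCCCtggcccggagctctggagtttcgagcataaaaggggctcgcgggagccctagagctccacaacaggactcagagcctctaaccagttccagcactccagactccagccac
Cxcl10: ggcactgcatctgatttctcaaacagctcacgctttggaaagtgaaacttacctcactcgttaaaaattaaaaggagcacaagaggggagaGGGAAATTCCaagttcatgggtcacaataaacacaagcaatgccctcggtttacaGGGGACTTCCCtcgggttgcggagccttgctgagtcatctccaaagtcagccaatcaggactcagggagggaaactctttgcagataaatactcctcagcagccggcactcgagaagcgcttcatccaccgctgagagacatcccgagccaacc
Irf1: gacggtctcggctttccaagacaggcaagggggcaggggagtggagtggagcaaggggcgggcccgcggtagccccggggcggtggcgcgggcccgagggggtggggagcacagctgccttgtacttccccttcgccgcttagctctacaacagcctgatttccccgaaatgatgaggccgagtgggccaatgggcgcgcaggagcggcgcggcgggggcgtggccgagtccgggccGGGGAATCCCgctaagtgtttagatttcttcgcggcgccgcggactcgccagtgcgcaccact
Chac1: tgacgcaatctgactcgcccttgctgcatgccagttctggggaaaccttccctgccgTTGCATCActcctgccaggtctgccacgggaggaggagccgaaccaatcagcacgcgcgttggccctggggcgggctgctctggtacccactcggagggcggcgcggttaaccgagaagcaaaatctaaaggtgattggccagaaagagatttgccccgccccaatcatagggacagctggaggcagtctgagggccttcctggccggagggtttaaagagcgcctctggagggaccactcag

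A κB site, searched on both strands, was in the windows of 1276 of 10345 tested genes with a RefSeq promoter (12.3%). In the NF-kB list 13 of 17 windows held one, 7 of 8 among the members called higher and 3 of 5 among those called lower. Most members of that list are textbook targets, so the share describes the list. Among all genes called higher the share was 11% and among those called lower 12.8%. The CArG box, the site of serum response factor, was in 3 of 24 windows of immediate early genes (12.5%) and in 1.67% of all, and 1 window of all had a CArG box that overlapped a κB site. TGATGNAA, on either strand, was in 10 of 33 windows of the integrated stress response (30.3%), 6 of 20 among members called higher, and in 2.81% of all. A match is a stretch of letters and does not show that a factor was bound.

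Interferon response and nucleic acid sensing genes split, with 12 of 33 tested members lower (36.4%, beside 24.1% of all genes) and 6 higher (18.2%, beside 21.9%). In the length and FPKM quartiles of the list's medians 28% of all genes fell and 7.82% rose. After the length correction 8 members were lower and 5 higher. The median was -0.09 as deposited and -0.05 corrected, and 0.20 among members of at least 5 FPKM. Adar, which edits double-stranded RNA and so hides self RNA from sensors, was at 16.8, 19.3 and 17.9 CPM in V465F against 35.2, 35.5 and 33.3 CPM in knockdown (log2 fold change -0.95 ± 0.0963, edgeR adjusted p = 2.57e-07; -0.71 corrected). The RNA sensor Ddx58 (RIG-I) fell by 0.56, its ubiquitin ligase Trim25 by 0.55 and the transcription factor Irf3 by 0.56. The DNA sensor Cgas fell by 1.81, but was under 1 CPM in all 6 libraries. B2m, the light chain of MHC class I, rose by 0.60, the ubiquitin-like Isg15 by 0.93 and the adaptor Sting1 by 0.29. Ifit1 and Irf7 were at 0.09 and 0.04 and were not called. The rises were 3 without V465F replicate 3 and 3 without knockdown replicate 2.

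Stress-response genes were higher in the majority, at about the share of all genes of similar length and level. Ddit3, the pro-apoptotic transcription factor CHOP, was at 354, 359 and 374 CPM in V465F against 207, 196.5 and 205 CPM in knockdown, without overlap (log2 fold change 0.84 ± 0.096, edgeR adjusted p = 1.13e-06; 0.84 corrected). Its target Chac1, which degrades glutathione, was at 35.5, 43.5 and 41.4 CPM in V465F against 24.97, 23.4 and 24.9 CPM in knockdown (0.72 ± 0.099, edgeR adjusted p = 8.37e-06). Ppp1r15a (GADD34), which returns eIF2alpha to its unphosphorylated state, rose by 0.67, and Atf4 by 0.42. The serine synthesis enzymes Phgdh (0.47) and Psat1 (0.39) and the secreted Gdf15 (0.43) rose. Lower were the arginine transporter Slc7a1 (-0.48) and the secreted Stc2 (-0.83). The cystine transporter Slc7a11 was at -0.22 and Trib3 at 0.20, and neither was called. Of 40 tested members 23 rose (57.5%) and 6 fell (15%), with a median of 0.28 as deposited and 0.31 corrected. In the length and FPKM quartiles of the list's medians 55.1% of all genes rose and 7.32% fell.

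In the endoplasmic reticulum's unfolded protein response, most chaperones rose and the stress sensors fell. Hspa5 (BiP) was at 2251, 2086 and 2134 CPM in V465F against 1454, 1329 and 1398 CPM in knockdown (log2 fold change 0.63 ± 0.076, edgeR adjusted p = 1.81e-06), without overlap. The lectin chaperone Calr rose by 0.58, the oxidoreductase Pdia3 by 0.56 and Hsp90b1 by 0.54. The sensor kinases Eif2ak3 (PERK, -0.57) and Ern1 (IRE1, -0.37), the sensor Atf6 (-0.26), the transcription factor Xbp1 (-0.31) and the co-chaperone Dnajc3 (-0.30) were lower, and after the correction Ern1 and Atf6 were at -0.14 and -0.02. In all 16 of 28 rose (57.1%) and 5 fell (17.9%), with a median of 0.35, corrected 0.32. The medians of this list and of the cytosolic chaperone list lie in quartiles where 55.1% of all genes rose and 7.32% fell. In the cytosol, 12 of 25 heat shock and chaperone genes rose (48%) and 2 fell (8%). The rises included the constitutive Hspa8 (0.49) and the chaperonin subunits Cct2 (0.49), Cct7 (0.44) and Cct5 (0.41). Their median of 0.18 was 0.00 in the fit on FPKM. The co-chaperone Bag3 fell by 0.32, and the heat shock factor Hsf1 was at 0.17 and not called.

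Genes of mitochondrial fusion and fission moved in both directions. Among outer membrane fusion genes Mfn2 was 79.9, 70.2 and 73.0 CPM in V465F against 100.4, 91.0 and 89.4 CPM in knockdown (log2 fold change -0.33 ± 0.072, edgeR adjusted p = 0.000722), without overlap, but it was not called after the length correction (-0.12, edgeR adjusted p = 0.122). Mfn1 was at 0.11 and not called. The receptors that recruit the fission GTPase DRP1 split, with Mief1 (-0.53) and Mief2 (-0.65) lower and Fis1 (0.34) and Mff (0.25) higher, and the gene of DRP1 itself, Dnm1l, at -0.13 and not called. Of the proteins that process or shield OPA1, the rhomboid protease Parl (0.37) and the prohibitins Phb (0.39) and Phb2 (0.38), with their partner Stoml2 (0.37), rose. The proteases Oma1 (-0.58) and Yme1l1 (-0.04) were not called. In all 8 of 29 rose and 10 fell, with a median of -0.13 that turned to 0.03 after the length correction, which left 4 falls.

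The cristae organizing genes were mostly higher. Chchd3 (MIC19), a core subunit of the MICOS complex, was at 235, 224 and 238 CPM in V465F against 161, 153 and 161 CPM in knockdown (log2 fold change 0.55 ± 0.073, edgeR adjusted p = 4.78e-06; 0.66 corrected). The MICOS genes Micos10 (0.41), Micos13 (0.49), Chchd6 (0.48), Apoo (0.43) and Immt (0.20) rose, as did the intermembrane space protein gene Chchd10 (0.66). Dnajc11, which links MICOS to the outer membrane, fell by 0.80, at 21.8, 18.9 and 17.6 CPM in V465F against 34.0, 33.9 and 33.6 CPM in knockdown, without overlap. Of 15 members 10 rose and 2 fell (median 0.30, corrected 0.17). The second fall, the import protein gene Mtx3 (-0.34), was at -0.11 after the correction, and only 1 fall was called without V465F replicate 1, without V465F replicate 3 or without knockdown replicate 2.

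Mitochondrial DNA maintenance and biogenesis genes were in part lower, 10 of 24 (41.7%), with 0 higher by edgeR, by DESeq2 or at an unadjusted p under 0.05. Their median was -0.25, and -0.13 corrected. In the length and FPKM quartiles of the list's medians, 44.6% of all genes fell and 7.2% rose. After the length correction 7 members were lower and 3 higher. Twnk, the mitochondrial replicative helicase, was at 7.37, 6.61 and 6.56 CPM in V465F against 12.7, 15.7 and 14.4 CPM in knockdown, without overlap (log2 fold change -1.06 ± 0.126, edgeR adjusted p = 1.61e-06; -0.91 corrected). Tfam, which packages mitochondrial DNA and starts its transcription, was at 29.1, 27.3 and 30.9 CPM in V465F against 38.7, 42.4 and 41.6 CPM in knockdown (-0.49 ± 0.076, edgeR adjusted p = 2.82e-05). The nuclease Mgme1 (-1.09), the elongation factor Tefm (-1.51), the ribonucleotide reductase subunit Rrm2b (-0.62), the polymerases Polg (-0.37) and Polrmt (-0.35) and the coactivator Ppargc1b (-0.39) fell. Nrf1 and Gabpa, factors that drive nuclear mitochondrial genes, were at 0.03 each and not called, and Ppargc1a was at -1.18 and not called. Of the 13 protein-coding genes on mitochondrial DNA 4 fell, CYTB (-0.44), COX2 (-0.53), ND6 (-0.42) and ND1 (-0.30), and COX1 rose (0.37). CYTB was at 7125, 6698 and 6437 CPM in V465F against 8803, 9116 and 9553 CPM in knockdown (-0.44 ± 0.0671, edgeR adjusted p = 2.41e-05). Their median was -0.15 as deposited, beside 76.1% higher and 1.75% lower among all genes of their length and FPKM quartiles, and -0.56 corrected, with 9 lower. Without V465F replicate 3, or without knockdown replicate 2 or 3, it was between -0.08 and -0.07. These genes have near-identical nuclear copies, so their counts are uncertain, and with only the 6 libraries in the fit 3 rose and 7 fell.

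Nuclear genes of the respiratory chain rose almost throughout. For complex I 33 of 36 rose and for complexes II to V 34 of 39, with 0 falls in either by edgeR, 0 at an unadjusted p under 0.05 and 0 by DESeq2. On log2 FPKM limma called 1 complex I gene lower. The medians were 0.46 and 0.47 as deposited, and 0.18 and 0.17 corrected, with 18 and 25 still called higher. The corrected median of all genes in the highest FPKM quartile was 0.2. Most of these genes are short and abundant, 31 and 35 of them in both the shortest length quartile and the highest FPKM quartile, where 76.1% of all genes rose and 1.75% fell. Atp5b, the catalytic subunit of the ATP synthase, was at 2631, 2622 and 2753 CPM in V465F against 1887, 1847 and 1899 CPM in knockdown (log2 fold change 0.51 ± 0.0685, edgeR adjusted p = 6.37e-06; 0.42 corrected). Uqcrq of complex III rose by 0.71, Cox7b of complex IV by 0.60 and Ndufb11 of complex I by 0.62, each without overlap. Ndufs1, the largest subunit of complex I, was at -0.13, and the membrane anchors of complex II, Sdhc and Sdhd, were at 0.06 and 0.11. None of these 3 was called.

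Ribosomal protein genes behaved alike. In the cytosolic ribosome 82 of 84 tested genes rose and 1 fell, the ribosome-like Rpl7l1 (-0.37), with a median of 0.53 as deposited and 0.24 corrected. That fall was lost without V465F replicate 2 or 3 or knockdown replicate 1 or 3. Of the 84 genes 77 lay in those same quartiles. Rpl4 was at 4611, 4597 and 4794 CPM in V465F against 3117, 3186 and 3267 CPM in knockdown (log2 fold change 0.55 ± 0.0831, edgeR adjusted p = 2.21e-05). Many of these genes have processed copies that could share reads. In the mitochondrial ribosome 51 of 79 rose and 0 fell by edgeR, by DESeq2 or at an unadjusted p under 0.05, while limma on log2 FPKM called 2 lower (median 0.33, corrected 0.20), led by Mrpl35 (0.62) and Mrps10 (0.45).

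Import, calcium and lipid genes of mitochondria were higher on balance, and transport genes lower. Of 32 import genes 17 rose and 2 fell (median 0.23, corrected 0.14, 0.04 on FPKM). The receptor Tomm20 was at 357, 363 and 374 CPM in V465F against 255, 264 and 270 CPM in knockdown (log2 fold change 0.47 ± 0.0743, edgeR adjusted p = 3.33e-05), without overlap, while the receptor Tomm70a fell by 0.57. Timm50 (0.52) and Timm13 (0.53) of the inner membrane rose. Without knockdown replicate 1 only 1 of these falls was called. Among 19 genes of calcium uptake and the outer membrane channel, 11 rose and 0 fell by edgeR, by DESeq2 or at an unadjusted p under 0.05. Their median was 0.25, corrected 0.30 and 0.07 on FPKM. The channels Vdac2 (0.48) and Vdac1 (0.43) and the adenine nucleotide carriers Slc25a5 (0.51) and Slc25a4 (0.48) were higher. The uniporter Mcu was at 0.08 and not called. In the cardiolipin list 7 of 16 rose and 1 fell, Lclat1 (-0.44), with a median of 0.19 as deposited, 0.21 corrected and 0.01 on FPKM. Transport along microtubules fell in 9 of 18 genes (50%) and rose in 1, Mgarp (0.32), with a median of -0.28 as deposited and -0.12 corrected. That is near the share of all genes in the length and FPKM quartiles of the list's medians, where 49.3% fell and 9.81% rose. The kinesins Kif5a (-0.52) and Kif5c (-0.49), the kinesin-binding Kifbp (-0.53) and the adaptor Trak2 (-0.60) fell, and the mitochondrial anchor Rhot1 (Miro1) was at -0.02 and not called. Of other genes of inherited optic atrophy, Opa3 (-0.63) and Slc25a46 (-0.40) fell and Tmem126a (0.44, not called corrected) rose. That list had 6 of 23 higher and 5 lower, with a median of -0.04 that was 0.04 corrected.

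**Figure D4:**
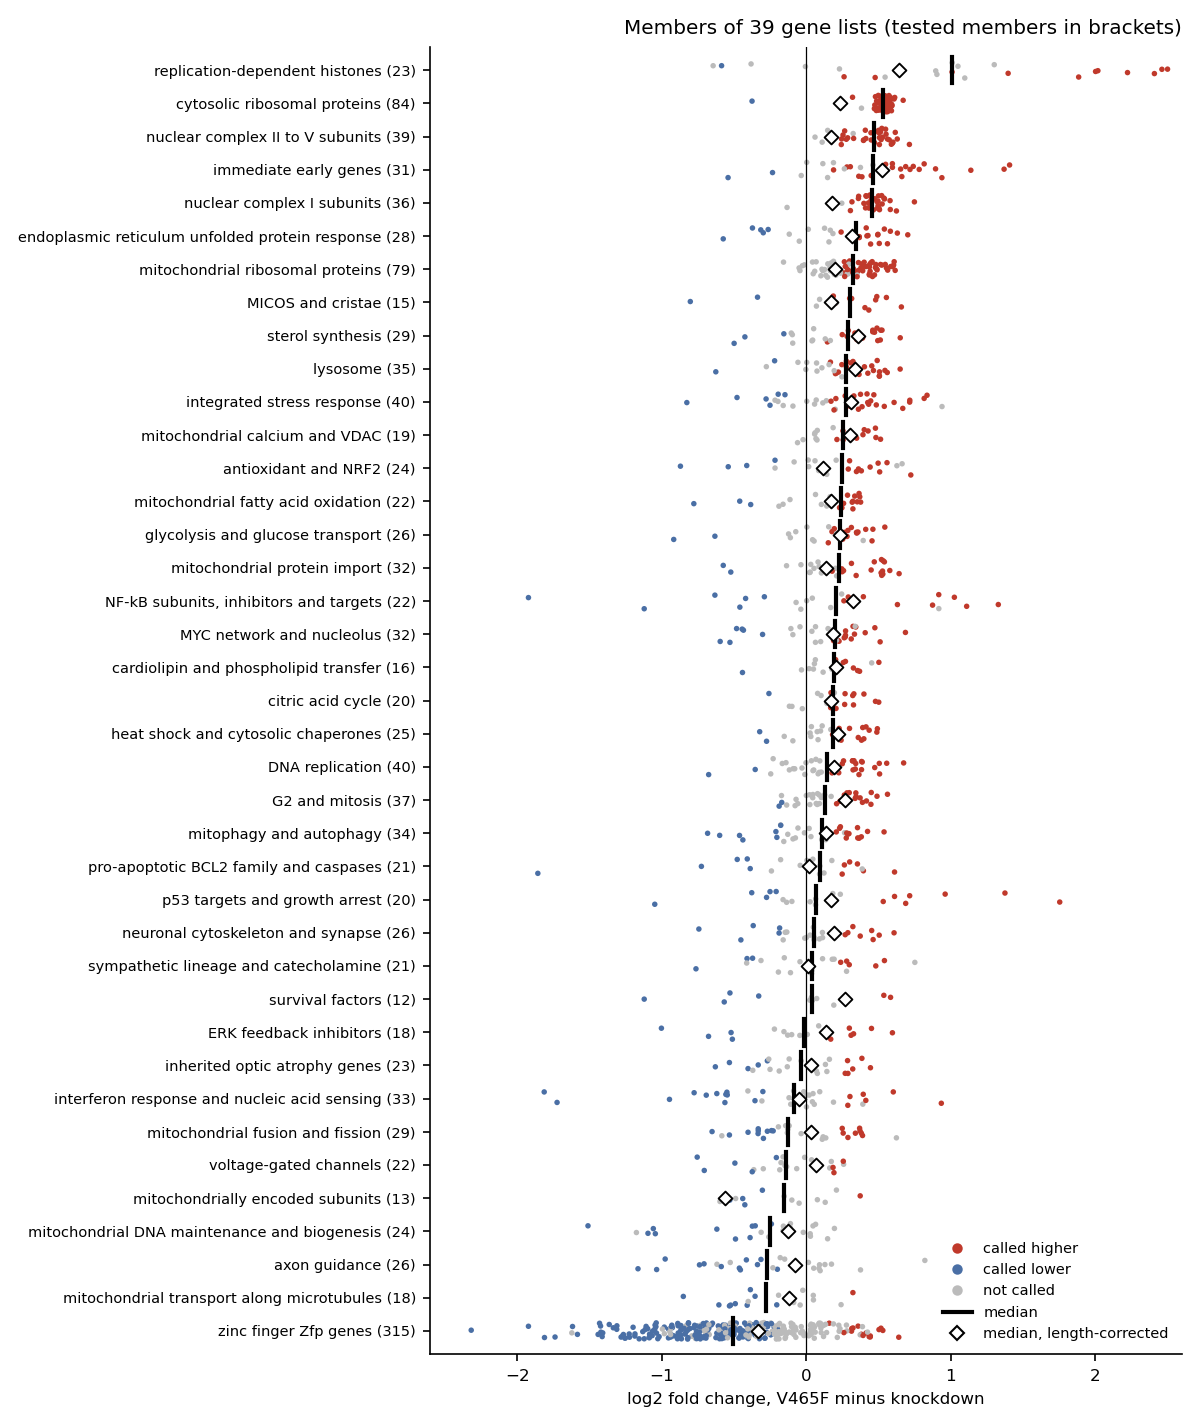
Log2 fold change of V465F against knockdown (horizontal axis) for each tested member of 39 gene lists, coloured by call, with the median of each list uncorrected (bar) and length-corrected (diamond). Histone, ribosomal, respiratory chain and immediate early lists have the highest uncorrected medians and the zinc finger list the lowest, and the corrected medians of ribosomal and respiratory lists lie closer to 0.

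Lysosomal genes were mostly higher, and the length correction did not lower their median. The protease Ctsd was at 2078, 2088 and 2192 CPM in V465F against 1454, 1405 and 1451 CPM in knockdown (log2 fold change 0.56 ± 0.0723, edgeR adjusted p = 3.89e-06), and the sialidase Neu1 at 69.8, 71.9 and 71.4 CPM in V465F against 46.6, 44.5 and 44.7 CPM in knockdown (0.65 ± 0.0832, edgeR adjusted p = 3.64e-06). Neither overlapped. Hexa (0.49), Ctsb (0.54), Lamp1 (0.45) and Lamp2 (0.32) rose as well. Of 35 members 23 rose (65.7%) and 2 fell (5.71%), beside 55.1% and 7.32% of all genes in the quartiles of the list's medians. The median was 0.28 as deposited and 0.34 corrected, where 28 rose and 1 fell. The falls were Tfeb (-0.63) and Tfe3 (-0.22), the transcription factors that drive lysosomal genes, and 1 of them was called without V465F replicate 1, V465F replicate 2 or knockdown replicate 1. The mitophagy and autophagy list had 13 of 34 higher and 7 lower (median 0.11, corrected 0.14, but -0.06 on FPKM). The cargo receptor Sqstm1 was at 1461, 1451 and 1467 CPM in V465F against 1091, 1058 and 1114 CPM in knockdown (0.42 ± 0.0651, edgeR adjusted p = 2.54e-05). The ATG8 protein Gabarap rose by 0.54, whereas the initiating kinase Ulk1 (-0.68) and its partner Atg13 (-0.60) fell, and the mitophagy kinase Pink1 was at 0.14 and not called.

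Death and growth-arrest genes were divided. Bmf, a BH3-only activator of apoptosis released from the cytoskeleton, was at 3.38, 3.38 and 2.98 CPM in V465F against 11.9, 11.6 and 11.8 CPM in knockdown, 3.62-fold lower without overlap (log2 fold change -1.86 ± 0.131, edgeR adjusted p = 4.16e-09; -1.65 corrected). In contrast Bbc3 (PUMA), a BH3-only target of p53 and CHOP, was at 24.6, 27.4 and 25.7 CPM in V465F against 15.8, 17.6 and 17.4 CPM in knockdown (0.61 ± 0.101, edgeR adjusted p = 5.35e-05). Bax (0.40) and cytochrome c, Cycs (0.35), rose, and Bid (-0.41) and Apaf1 (-0.39) fell, Apaf1 not after the correction (-0.16). In that list 6 of 21 rose and 5 fell (median 0.09, corrected 0.02, -0.09 on FPKM). The falls were 3 without V465F replicate 2, V465F replicate 3, knockdown replicate 1 or knockdown replicate 2. Of 12 survival factors 3 rose, Dad1 (0.58), Bag1 (0.54) and Birc5 (0.28), and 4 fell, among them Bcl2 (-0.53) and Cflar (-0.57). Those shares were 25% and 33.3%, beside 9.81% and 49.3% of all genes in the quartiles of the list's medians. Neither Bcl2 nor Cflar was called after the correction, which left 0 falls by edgeR, and without V465F replicate 2, V465F replicate 3 or knockdown replicate 2 the falls were 2. Mcl1 was at 0.07 and not called. Among p53 and growth-arrest genes 7 of 20 rose and 5 fell (median 0.06, corrected 0.17, -0.10 on FPKM). The Gadd45 genes, stress-induced regulators of growth and repair, rose together. Gadd45g was at 15.1, 19.1 and 20.2 CPM in V465F against 7.49, 5.99 and 7.45 CPM in knockdown (1.38 ± 0.166, edgeR adjusted p = 1.81e-06), Gadd45b rose by 0.96 and Gadd45a by 0.72. Cdkn1a and Mdm2, the classic p53 targets, were at 0.18 and 0.03 and not called, and Tigar fell by 1.05. The falls in this list were 3 without V465F replicate 2 or knockdown replicate 1.

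Histone genes had a median of 1.01 as deposited, 0.64 corrected, 0.37 on FPKM and 0.38 over the 5 members of at least 5 FPKM, although only 23 of the 65 in the table had enough counts to be tested and that filter favours members high in one group. Replication-dependent histone mRNAs carry no poly(A) tail, so their level in an RNA library depends on how RNA was selected, which the labels do not give. H1f2 was at 55.8, 60.2 and 68.2 CPM in V465F against 24.7, 22.4 and 22.9 CPM in knockdown (log2 fold change 1.40 ± 0.113, edgeR adjusted p = 2.02e-08), and H4c9 at 5.66, 4.83 and 6.46 CPM in V465F against 1.74, 0.966 and 0.900 CPM in knockdown (2.22 ± 0.287, edgeR adjusted p = 3.88e-06). Both were without overlap. In all 11 rose and 1 fell, H2bc21, with 7 rises when the fit held only the 6 libraries and 0 falls without V465F replicate 1 or 2 or knockdown replicate 2 or 3. The name pattern also took in the replication-independent linker histones H1f0 (0.26) and H1f10 (0.48). Histone genes are near-copies of each other, so their counts are uncertain.

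DNA replication genes had 19 of 40 higher and 2 lower, with a median of 0.14 as deposited, 0.20 corrected and -0.04 on FPKM. The clamp loader Rfc4 (0.67), the polymerase subunit Pold2 (0.51), thymidylate synthase Tyms (0.51) and the clamp Pcna (0.38) rose, the replisome gene Gins3 (-0.68) fell, and Cdt1, Mcm7 and E2f1 were at 0.07, 0.05 and 0.10 and not called. G2 and mitosis genes had 17 of 37 higher and 2 lower (median 0.13, corrected 0.27, -0.05 on FPKM). Cyclin B2, Ccnb2, was at 58.5, 62.6 and 65.5 CPM in V465F against 46.0, 37.6 and 42.7 CPM in knockdown (log2 fold change 0.56 ± 0.0818, edgeR adjusted p = 1.49e-05). Mki67 and Plk1 were at 0.04 and -0.14 and not called, and the 2 falls, Kif11 (-0.19) and Kif23 (-0.17), were 0 or 1 with any of the 6 libraries left out. In the MYC and nucleolar list 15 of 32 rose and 6 fell (median 0.20, corrected 0.18). Myc itself rose by 0.19, Mycn was at -0.04, nucleolin, Ncl, rose by 0.41, and the MYC antagonist Mxd1 and the RNA polymerase I subunits Polr1a and Polr1b fell by 0.60, 0.48 and 0.43.

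Metabolic genes rose on balance, with single exceptions. Mvd, the decarboxylase of the mevalonate pathway, was at 564, 565 and 584.5 CPM in V465F against 382, 348 and 362 CPM in knockdown (log2 fold change 0.65 ± 0.072, edgeR adjusted p = 7.51e-07). The squalene synthase Fdft1 (0.52), the cyclase Lss (0.52) and Nsdhl (0.51) rose, while the lipogenic regulator Srebf1 fell by 0.50. Of 29 sterol synthesis genes 18 rose and 3 fell (median 0.29, corrected 0.36), with 1 fall without knockdown replicate 1. In glycolysis 15 of 26 rose and 2 fell (median 0.23, corrected 0.23, 0.04 on FPKM). Those falls were Hk2, the inducible hexokinase that docks on mitochondria, at 35.1, 32.1 and 29.4 CPM in V465F against 55.6, 63.3 and 63.5 CPM in knockdown (-0.92 ± 0.0771, edgeR adjusted p = 3.39e-08; -0.70 corrected), and the lactate exporter Slc16a3 (-0.63). The rises were 9 without V465F replicate 3 or without knockdown replicate 1. The medians of the glycolysis and citric acid cycle lists lie in quartiles where 55.1% of all genes rose and 7.32% fell. Their own shares of rises were 57.7% and 60%. In the citric acid cycle 12 of 20 rose (Idh3b 0.50, Cs 0.33) and 1 fell, Ogdh (-0.26, not called without V465F replicate 2 or 3 or knockdown replicate 1), with a median of 0.18, corrected 0.17 and 0.00 on FPKM. In fatty acid oxidation 12 of 22 rose (54.5%) and 3 fell (median 0.24, corrected 0.17, 0.05 on FPKM), the entry enzymes Cpt1a (-0.38) and Cpt2 (-0.46) among the falls. Of all genes, 34.9% rose in the quartiles of that list's medians, and 76.1% in the quartiles with the most members, 7 of 22. In the antioxidant list 10 of 24 rose and 4 fell (median 0.25, corrected 0.12), with the peroxidase Gpx1 (0.72) higher, and the NRF2 gene Nfe2l2 (-0.22) and its targets Srxn1 (-0.87) and Txnrd1 (-0.41) lower.

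Of the neuronal lists, the one of the sympathetic lineage and catecholamines had 5 of 21 genes higher (23.8%, beside 21.9% of all) and 3 lower. Among its transcription factors, Hand2 was at 188, 182 and 182 CPM in V465F against 251, 238 and 245 CPM in knockdown (log2 fold change -0.41 ± 0.0678, edgeR adjusted p = 5.41e-05), without overlap, and Gata2 (-0.37) fell as well, with Phox2a and Gata3 at -0.19 and -0.15 and not called. Scg2 (0.48), Chga (0.30) and Chgb (0.28), which encode secretory granule proteins, rose, and the noradrenaline enzymes Th and Dbh were at 0.11 and 0.18 and not called. The list's median was 0.04, corrected 0.01, -0.06 on FPKM and 0.12 without V465F replicate 1. Among cytoskeletal and synaptic genes 9 of 26 rose, such as Vamp2 (0.61), Stmn2 (0.45) and Tubb3 (0.37), and 5 fell, such as the RNA-binding Elavl4 (-0.74), with a median of 0.05, corrected 0.19 and -0.12 on FPKM. The falls were 3 without knockdown replicate 1, 2 or 3. Axon guidance genes had 12 of 26 lower (46.2%) and 0 higher by edgeR or DESeq2, with 2 higher at an unadjusted p under 0.05 (median -0.27). Of all genes in the length and FPKM quartiles of the list's medians, 53.7% fell and 6.64% rose. In the quartiles with the most members, 6 of 26, 28.9% fell and 3.35% rose. These are long genes, and after the length correction 6 were lower and 6 higher with a median of -0.08. The netrin receptor Unc5c was at 81.4, 65.9 and 62.5 CPM in V465F against 139, 142 and 132 CPM in knockdown (-0.98 ± 0.12, edgeR adjusted p = 2.31e-06; -0.72 corrected), without overlap, and the semaphorins Sema6d (-1.16) and Sema6a (-1.03) and the ephrin Efna5 (-0.59) fell. Netrin itself, Ntn1, was at 0.82 and not called. One guidance gene was called higher without V465F replicate 1 or without knockdown replicate 3. Voltage-gated channels had 3 of 22 higher (13.6%) and 5 lower (22.7%), with a median of -0.14 that was 0.07 corrected, and the potassium channel Kcnh2 (0.19) rose. Of all genes in the quartiles of that list's medians, 6.64% rose and 53.7% fell. In the channel list the rises were 1 without V465F replicate 3, and the falls were 3 without V465F replicate 1 or knockdown replicate 2.

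The zinc finger Zfp genes, mostly KRAB repressors of transposable elements and other targets, had the lowest list median as deposited. Of 315 tested 176 fell (55.9%) and 16 rose (5.08%), with a median of -0.51 as deposited and -0.33 corrected, where 128 fell and 28 rose. Of all genes in the length and FPKM quartiles of the list's medians, 44.6% fell and 7.2% rose. The quartiles with the most members, 52 of 315, had 28.9% of all genes lower and 3.35% higher. Corrected, the mitochondrially encoded list was lower (-0.56), and among genes of at least 5 FPKM the Zfp median was -0.19, above that of axon guidance (-0.41). Most were transcripts of low level. Zfp334 was at 10.2, 10.3 and 10.0 CPM in V465F against 19.8, 21.5 and 20.6 CPM in knockdown (log2 fold change -1.02 ± 0.087, edgeR adjusted p = 3.79e-08) and Zfp46 at 5.61, 4.78 and 4.87 CPM in V465F against 14.0, 13.6 and 12.8 CPM in knockdown (-1.41 ± 0.127, edgeR adjusted p = 7.12e-08). Zfp207, which encodes a mitotic spindle protein, rose by 0.64. The rises were 10 without knockdown replicate 2. The largest falls of genes over 1 FPKM included those of Thap2, a zinc finger gene, at 3.99, 3.92 and 2.78 CPM in V465F against 15.3, 15.9 and 13.6 CPM in knockdown (4.20-fold, -2.07 ± 0.139, edgeR adjusted p = 3.16e-09), Bmf, Glcci1 (-1.67), Zfp455 (-1.62), Fam222b (-1.56), the phosphatase regulator Ppp1r10 (-1.55), Fbxl7 (-1.50), Tbc1d25 (-1.43), Zfp703 (-1.42), Zfp11 (-1.42) and Zfp763 (-1.41). Among the largest rises, beside those above, were the peptide hormone genes Adm (1.39) and Pomc (1.39) and the muscle-type cytochrome oxidase subunit Cox6a2 (1.35). Rhox4a2 rose by 1.36 and Rnaset2b by 1.73, both with near-identical copies. Rnaset2b rested on V465F replicate 2, at 13.4 CPM beside 2.02 and 2.24 CPM, and was at 0.27 without it (edgeR adjusted p = 0.503). Rhox4a2 was not called without V465F replicate 3 (0.90, edgeR adjusted p = 0.0696).

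The length correction ended the call of some of the genes given above as higher or lower: Klf10, Nfkb1, Birc3, Tnfaip2, Ern1, Atf6, Dnajc3, Mfn2, Fis1, Micos13, Mtx3, Polg, Polrmt, Ppargc1b, Lclat1, Mgarp, Tmem126a, Tfe3, Bax, Apaf1, Bcl2, Cflar, Kif11, Kif23 and Ogdh were not called after it. Conversely, Mfn1, Yme1l1, Nrf1, Gabpa, Mcu, Mcl1, Mdm2, Mki67 and Ntn1 were called higher after it, and Plk1 and Phox2a lower, though not called as deposited. List medians near 0 moved with single libraries. With 1 of the 6 left out in turn, the median of the ERK feedback list lay between -0.08 and 0.03, of interferon response between -0.145 and -0.06, of inherited optic atrophy between -0.08 and -0.02 and of survival factors between 0.00 and 0.09. That of pro-apoptotic genes lay between 0.03 and 0.10, of p53 targets between 0.03 and 0.07, of cytoskeleton and synapse between 0.03 and 0.08, of mitophagy and autophagy between 0.07 and 0.16, and of G2 and mitosis between 0.10 and 0.20. The strand setting of the counting is not given in the sources used here. Genes named above that overlap another gene on the opposite strand in a GENCODE mouse annotation are therefore uncertain, since reads of the pair cannot be told apart. They are Adar, Bcl2, Bid, Cct7, Cdkn1a, Cgas, Chchd10, Cox6a2, Ctsb, Cxcl10, Ddit3, Dnm1l, Dusp1, Dusp8, Eif2ak3, Fdft1, Gabpa, Gadd45a, Gata3, Glcci1, H1f0, Hand2, Hexa, Hs6st1, Hsp90b1, Idh3b, Immt, Irf1, Irf3, Irf7, Junb, Lamp1, Lss, Mcm7, Mff, Mgme1, Ndufb11, Ndufs1, Nfkbib, Pdia3, Phb2, Phlda1, Phox2a, Plk1, Polg, Polr1a, Ppp1r15a, Rfc4, Rrm2b, Slbp, Slc25a46, Spry1, Sqstm1, Srebf1, Stoml2, Tigar, Timm13, Tnfaip2, Tomm70a, Twnk, Unc5c, Vdac2 and Zfp703.

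How V465F differed from the other plasmids was tested directly. Against WT OPA1 4988 of 13074 genes (38.2%) were called by edgeR, 2367 higher (18.1%) and 2621 lower. Without WT OPA1 replicate 3 and V560F replicate 2, 2873 were higher and 3044 lower. This contrast is the test of whether V465F and WT OPA1 differ in their effect on the knockdown. WT OPA1 against knockdown gave 0 calls by edgeR, with 1157 genes at an unadjusted p under 0.05. Knockdown against control, the background to both, had 4689 genes called (35.9%), 2599 higher (19.9%) and 2090 lower. Egr1 averaged 170.0 ± 22.3 CPM in V465F and 163 ± 8.99 CPM in V560F, against 73.2 ± 2.47 CPM in WT OPA1 and 64.1 ± 2.99 CPM in knockdown (SD, n = 3 each), and the log2 fold change of V465F over WT OPA1 was 1.22 (edgeR adjusted p = 4.8e-09). Nfkbia averaged 191 ± 11.6 CPM in V465F, 240 ± 32.9 CPM in V560F, 102 ± 9.89 CPM in WT OPA1 and 93.8 ± 2.68 CPM in knockdown. Jmy, a regulator of actin and p53, averaged 22.1 ± 2.14 CPM in V465F, 20.2 ± 1.73 CPM in V560F, 48.9 ± 5.92 CPM in WT OPA1 and 55.8 ± 3.12 CPM in knockdown, and that of V465F over WT OPA1 was -1.147 (edgeR adjusted p = 8.15e-08). Hs6st1, a heparan sulfate sulfotransferase, the transcriptional repressor Zbtb7a and Ankib1 lay 0.93, 1.03 and 0.87 below WT OPA1 and 0.88, 1.19 and 0.97 below knockdown.

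**Figure D5:**
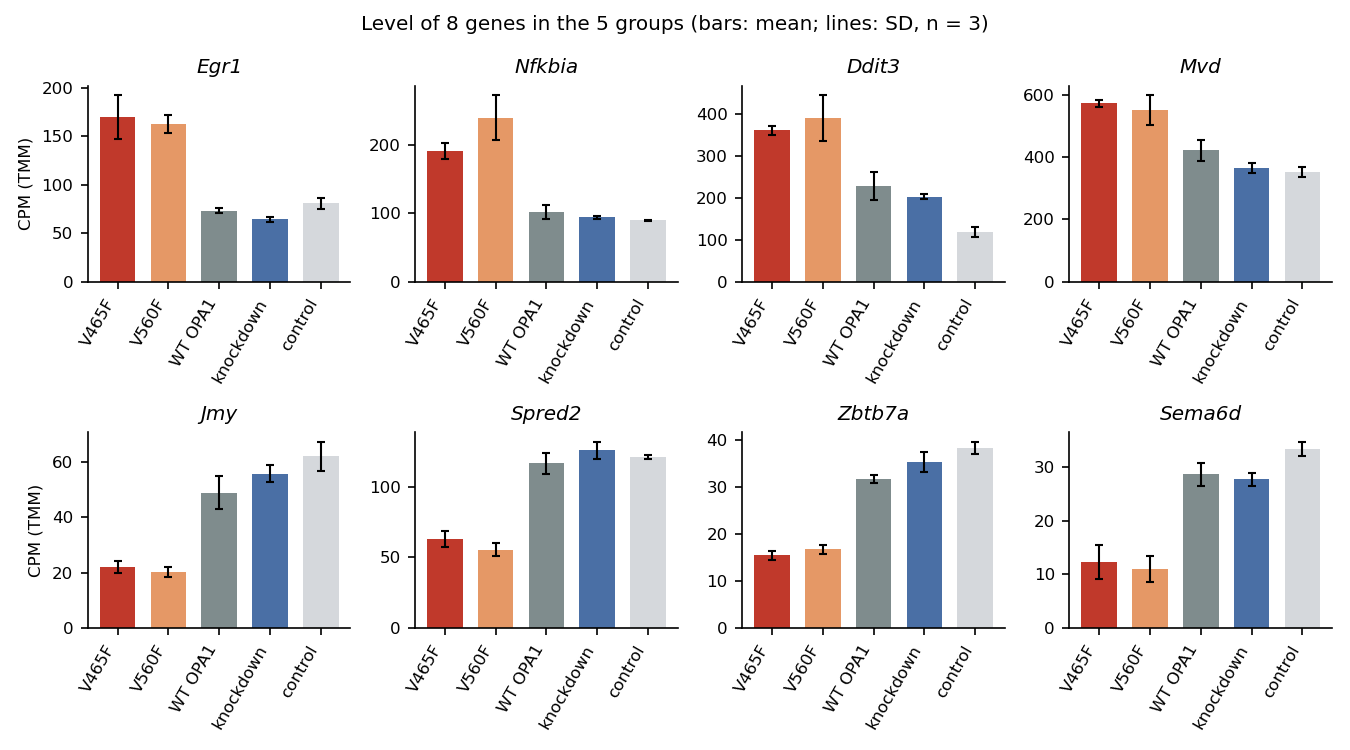
Mean level in CPM (vertical axis, from 0) of 8 genes in the 5 groups, with SD (n = 3 each). Egr1, Nfkbia, Ddit3 and Mvd stand higher in V465F and V560F, and Jmy, Spred2, Zbtb7a and Sema6d lower, than in WT OPA1, knockdown and control.

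By list, V465F against WT OPA1 had 15 of 31 immediate early genes higher and 1 lower. In the integrated stress response 21 of 40 were higher and 5 lower, and in the lysosome 18 of 35 higher and 2 lower. Complex I had 31 of 36 higher and 0 lower, and Zfp genes 12 of 315 higher and 152 lower. Interferon response and nucleic acid sensing had 1 of 33 higher and 13 lower. Among all 13074 genes 2367 were higher and 2621 lower in this contrast. Length slopes differed here too, at -0.239 ± 0.0441 in V465F and 0.0935 ± 0.139 in WT OPA1 (SD, n = 3 each). The part of that trend in these list counts was not tested. Against V560F 1 gene (0.00765%), Slbp, was called by edgeR, and it was lower in V465F, while 2373 of 13074 had an unadjusted p under 0.05 and DESeq2 called 147. Without V560F replicate 2 and WT OPA1 replicate 3 the count was 17, and without V465F replicate 1 or 2 it was 0. Both mutants were set against the same knockdown libraries, so their values are given side by side only. V560F against knockdown had 7040 genes called (53.8%). Egr1 stood at 1.41 for V465F and 1.35 for V560F against knockdown, Nfkbia at 1.02 and 1.35, Ddit3 at 0.84 and 0.95, Spred2 at -1.002 and -1.18, Bmf at -1.86 and -1.73, Hk2 at -0.92 and -1.13, and CYTB at -0.44 and -0.23. The medians of the immediate early list were 0.46 and 0.60, of complex I 0.46 and 0.62, and of the mitochondrially encoded genes -0.15 (-0.07 without V465F replicate 3) and 0.16.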

How the data were processed

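The deposited table held read counts per gene and FPKM for 22507 genes in 15 libraries. Per the submitters' processing notes, the tools were fastp, HISAT2, HTSeq and R 3.2.0, on GRCm39; annotation, strand setting and filters are not given in the sources used here. The deposited FPKM values equalled count divided by length and table total, to within 1.22e-06 of their size, so transcript length was read back from both. Genes were tested with edgeR 4.0.16 in R 4.3.3 (filterByExpr, TMM, quasi-likelihood test, 1 mean per group over all 15 libraries, 10 residual degrees of freedom), with Benjamini-Hochberg adjustment over 13074 genes and calls under 0.05. Standard errors were the log2 fold change divided by the root of F. CPM used TMM library sizes. The biological coefficient of variation was 7.8%. Total counts per library limit precision as the intervals show, which cover these libraries only.

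The length correction was an offset per library from a spline with 5 degrees of freedom of log2 level on log10 length. Alternatives were DESeq2 1.42.0, DESeq2 size factors, other filters, limma 3.58.1 on log2(FPKM + 1), a replicate block, only the 6 libraries, leaving out each library and, added after seeing the data, a length and GC offset (GC known for 94.3% of tested genes) and leaving out both libraries that stood apart. Same-numbered libraries correlated at 0.0808, 0.0267 and 0.0383, which was not taken as pairing. The 39 lists and the members were chosen with earlier results of these data known. Named genes were Opa1, the 12 largest rises and 12 largest falls of called genes over 1 FPKM without overlap (leaving out Gm, Rik and LOC symbols), up to 4 called members per list with the lowest adjusted p, and 8 genes called the same way against knockdown and WT OPA1. Other members are named to account for their list. Promoters were RefSeq windows on GRCm38.p6, found for 10345 tested genes. Some genes are not reported here.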

Additional observations from a re-analysis of the deposited data

Results flagged for a closer look

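Slbp, which encodes the stem-loop binding protein of histone mRNA, was flagged because V465F and V560F differed in their effect on it by a test of the difference itself. It was chosen after its values were seen. Slbp stood at 50.9, 49.5 and 53.8 CPM in V465F, against 71.8 ± 4.48 CPM in V560F (SD, n = 3). The log2 difference, V465F minus V560F, was -0.483 (edgeR adjusted p = 0.00889), and V465F minus knockdown was 0.06 (edgeR adjusted p = 0.485). The difference between the mutants was not called with only the 6 libraries in the fit (-0.46, edgeR adjusted p = 0.444), without V465F replicate 1 (-0.47, edgeR adjusted p = 0.129) or without V465F replicate 2 (-0.46, edgeR adjusted p = 0.134). Slbp overlaps a gene on the opposite strand. V560F replicate 2 stood apart from its group in its length trend, and without it and WT OPA1 replicate 3 the difference was -0.45 (edgeR adjusted p = 0.00237).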

How the results depend on the processing

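Against knockdown, 6015 genes were called (2867 higher, 3148 lower). Leaving out 1 of the 6 libraries gave 4868 to 5480 calls. A filter of 5 FPKM left fewer genes to test and gave 3886 (1865 higher, 2021 lower), and 3282 against WT OPA1 (1551 higher, 1731 lower). On log2 FPKM limma called 1406 higher and 4866 lower, and against WT OPA1 972 higher and 4297 lower. With the length and GC offset 2090 were lower than in knockdown and 1745 lower than in WT OPA1. The cause was not tested. In the 17 settings 0 genes were called in the opposite direction. The length offset kept 72.7% of the calls and limma on FPKM 75%. Of the 176 genes that the naming rule took, other than Opa1, at most 9 lost their call under any one setting, and 0 changed sign. With a replicate block 6025 genes were called, and 3 of 3 V465F libraries correlated best with their own number, a hint from the data and not from the design.

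Between V465F and V560F the single call became 580 with no filter, 7 over 5 FPKM, 0 with only the 6 libraries (0 to 1 with a library left out), 3 with the replicate block, 147 by DESeq2, 53 with the length offset, 303 with that offset and the block, 74 with length and GC, and 17 without both libraries that stood apart. The cause was not tested. Opa1 was at -0.2468 on FPKM, and reversed to 0.1219 with the length offset, 0.1228 with the block added and 0.1185 with length and GC.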
